A study of Mus musculus with 13 samples.

Results

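Pou3f1, Rph3a, Ccnd1, Hip1 and Zfp608 are 5 of the 32285 genes counted in single nuclei of the mouse hippocampus. They were chosen by their measured difference in oligodendrocyte precursors between old mice on long-term dietary restriction and old mice fed ad libitum: the first 4 were higher under restriction and Zfp608 was lower. The values that chose them come from these same libraries, so that difference is described here and not tested.

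The study compared feeding regimes and ages in female C3B6F1 hybrid mice (the strain field of the labels spells it C3HB6F1), with 1 library of sorted nuclei from the whole frozen hippocampus per mouse and 13 mice in all. The 3 young ad libitum mice were 5 months old and the 3 old ad libitum mice (replicates 1, 2 and 4) were 24 months old. The 3 mice on acute restriction were also 24 months old and had been restricted from 20 months of age. The 4 mice on long-term restriction, again 24 months old, had been restricted from 5 months of age. No transgene or deletion is named in the labels, all groups are female and of one hybrid strain, and the labels do not say how strongly food was restricted.

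Oligodendrocyte precursors are the dividing glia of the adult brain: they tile the tissue, contact neurons and give rise to myelinating oligodendrocytes, a capacity that is known to decline with age. The 5 genes act at different levels of such a cell. Pou3f1 (also called Oct6) encodes a POU-domain transcription factor best known from the onset of myelination in Schwann cells, and Zfp608 encodes a zinc-finger protein whose paralog ZFP609 binds the cohesin loader NIPBL. Ccnd1 encodes cyclin D1, which activates the kinases CDK4 and CDK6 and so leads RB phosphorylation and entry into S phase. Rph3a encodes rabphilin 3A, an effector of the vesicle GTPases RAB3 and RAB27, and Hip1 encodes huntingtin-interacting protein 1, an adaptor that links clathrin, the AP2 complex and actin during endocytosis.

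All positions are on GRCm38 (mm10), from GENCODE vM21, and UMIs were assigned to whole genes. Pou3f1 (ENSMUSG00000090125) spans 3.85 kb on the plus strand of chromosome 4 (chr4:124656807-124660655), and the antisense gene Gm2164 overlaps its 5′ end. Rph3a (ENSMUSG00000029608) spans 69.6 kb on the minus strand (chr5:120940499-121010092) and Hip1 (ENSMUSG00000039959) 139 kb on the same strand (chr5:135406531-135545120), each with 1 experimentally untested transcript model inside it. Ccnd1 (ENSMUSG00000070348) spans 9.99 kb on the minus strand (chr7:144929931-144939925) and overlaps LTO1 on the opposite strand. Whether strand and intronic reads were used in counting is not given in the sources used here. Gm2164 was counted as a gene of its own. How far reads of the overlapping genes, those at Zfp608 included, entered the UMIs of the members was not tested.

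The pair of members that followed each other most closely across mice, Rph3a and Hip1, also has promoter sequence in the RefSeq table (2 of 5 members matched, with 3 start sites for Rph3a and 2 for Hip1), and 1 promoter of each is shown so that they can be set side by side. Each is the 250 bases before a start site on the minus strand, 5′ to 3′, GRCm38.p6. Capitals mark matches to the GC box (GGGCGG, read CCGCCC on the other strand) and the CAAT box (CCAAT), searched on both strands. The Rph3a window lies before the start 554 bases inside the annotated 5′ end of the gene (chr5:121009539-121009788, 62% G+C), and the Hip1 window lies before a start 2 bases outside the annotated 5′ end (chr5:135545123-135545372, 60% G+C). These windows overlap 0 annotated exons of GENCODE.
Rph3a: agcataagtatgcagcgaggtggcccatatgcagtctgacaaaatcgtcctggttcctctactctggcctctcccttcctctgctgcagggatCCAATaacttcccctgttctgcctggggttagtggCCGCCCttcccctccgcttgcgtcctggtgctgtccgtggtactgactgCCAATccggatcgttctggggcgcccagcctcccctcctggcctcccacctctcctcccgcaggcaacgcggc
Hip1: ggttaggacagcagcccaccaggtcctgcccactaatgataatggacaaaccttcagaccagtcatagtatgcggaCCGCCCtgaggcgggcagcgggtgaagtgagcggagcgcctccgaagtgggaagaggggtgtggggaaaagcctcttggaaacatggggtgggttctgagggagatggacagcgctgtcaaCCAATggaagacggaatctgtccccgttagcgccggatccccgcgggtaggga
The Rph3a window held 1 GC box and 2 CAAT boxes, and the Hip1 window held 1 of each. The other windows of these genes differed: the Rph3a window at the annotated 5′ end held 0 of either, the third Rph3a window 0 GC boxes and 1 CAAT box, and the other Hip1 window 2 overlapping GC boxes and 0 CAAT boxes. Over 32851 promoter windows of the same length, 32.7% held a GC box and 33.8% a CAAT box. None of the 5 windows of both genes held the POU octamer (ATGCAAAT, 1.6% of windows) or the E-box (CACGTG, 6.02%).

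Precursor nuclei were found by clustering all nuclei and naming clusters from marker lists, with the 5 members kept out of the genes used for clustering. Of 98041 nuclei retained after removal of doublets, 2809 were oligodendrocyte precursor-like, with 126 to 366 per mouse. All 10 precursor markers were present: Pdgfra, the receptor for the precursors' main mitogen, was at 620 to 823 UMIs per 1000000 UMIs of the summed nuclei of a mouse (CPM, the unit used for all levels), and the proteoglycan gene Cspg4 (NG2) was at 287 to 459 CPM. Markers of mature oligodendrocytes summed to 112 to 259 CPM there, against a median of 12212 CPM in oligodendrocyte-like nuclei. The 13 libraries held 38546292 to 80538090 UMIs, and the summed precursor-like nuclei held 370197 to 1364500. Median UMIs per precursor-like nucleus were 1928 to 2841 in young, 3403.5 to 6022.5 in old ad libitum, 2986 to 3773.5 in acute and 3178 to 4631 in long-term restriction mice. Young nuclei were thus shallower than those of every old mouse. The share of precursor-like nuclei was 1.95% to 2.18% in young and 3.69% to 5.24% in old ad libitum mice. It was 2.36% to 2.97% under acute and 2.35% to 3.76% under long-term restriction. Each library is a separate mouse, and 2712 of 105427 retained barcode sequences occurred in more than 1 library (3 to 40 per pair of libraries).

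The mean of Pou3f1 was lowest in old mice fed ad libitum. In precursor-like nuclei it was at 97.6, 54.0 and 76.1 CPM in the 3 young mice and at 39.5, 61.6 and 35.2 CPM in the 3 old ad libitum mice. Under acute restriction it was at 107, 83.4 and 92.9 CPM, and under long-term restriction at 105, 130, 91.5 and 83.3 CPM. All 7 restricted mice lay above all 3 old ad libitum mice, while the young mice overlapped both. These values rest on 20 to 95 UMIs per mouse. Relative to old ad libitum mice, the log2 fold change was 1.17 ± 0.20 (SE) under long-term and 1.07 ± 0.21 under acute restriction.

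Zfp608 went the other way. The gene (ENSMUSG00000052713) spans 105 kb on the minus strand of chromosome 18 (chr18:54888048-54992555), where 2 non-coding genes lie opposite to it. It was at 490, 343 and 378 CPM in young and at 547, 519 and 475 CPM in old ad libitum mice. The acute restriction mice had 471, 421 and 390 CPM and the long-term restriction mice 342, 332, 339 and 320 CPM. The long-term group was the tightest of all, with an SD of 9.67 CPM around a mean of 333 CPM (n = 4). It lay below every other mouse, although only just below young replicate 2 (343 CPM). Of genes tested, this group was lower without overlap for 4.44% against old ad libitum, 7.79% against young and 2.58% against acute restriction mice. The share below every other mouse was not computed. The highest acute restriction mouse (471 CPM) was also only just below the lowest old ad libitum mouse (475 CPM). Zfp608 rested on 127 to 666 UMIs per mouse. The log2 fold change against old ad libitum mice was -0.61 ± 0.12 for long-term and -0.25 ± 0.13 for acute restriction.

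Ccnd1 was lower in old than in young mice fed ad libitum and intermediate or high under restriction. Young mice had 86.7, 81.0 and 95.1 CPM and old ad libitum mice 49.6, 39.0 and 46.2 CPM. Acute restriction gave 72.4, 61.7 and 71.4 CPM and long-term restriction 83.1, 99.1, 64.2 and 90.9 CPM. Both restricted groups lay above the old ad libitum mice without overlap, the acute group lay below the young mice without overlap, and the long-term group overlapped the young mice. With 30 to 73 UMIs per mouse, this was among the most thinly counted members. Against old ad libitum mice its log2 fold change was 0.92 ± 0.18 for long-term and 0.65 ± 0.19 for acute restriction, and that of old against young ad libitum mice was -0.91 ± 0.20.

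Rph3a differed most between the 2 kinds of restriction. It was at 93.2, 64.8 and 82.4 CPM in young, 113, 84.2 and 92.3 CPM in old ad libitum and 107, 133 and 128 CPM in acute restriction mice. In long-term restriction mice it reached 161, 171, 240 and 195 CPM, above all 9 other mice. Of genes tested, 3.51% were higher without overlap against old ad libitum, 4.99% against young and 2.92% against acute restriction mice. The share above all 9 was not computed. The acute group overlapped the old ad libitum group, since acute replicate 1 (107 CPM) lay below old ad libitum replicate 1 (113 CPM). The log2 fold change was 1.02 ± 0.16 for long-term restriction against old ad libitum, 0.38 ± 0.17 for acute restriction against old ad libitum and 0.64 ± 0.16 for long-term against acute restriction. Over 23 alternative fits that for acute restriction against old ad libitum was 0.284 to 0.675, and none called it. UMIs per mouse numbered 24 to 176.

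Hip1 was high under both kinds of restriction. It was at 343, 262 and 448 CPM in young and 424, 369 and 394 CPM in old ad libitum mice. It was at 497, 736 and 570 CPM under acute and 522, 674, 675 and 649 CPM under long-term restriction. All 7 restricted mice lay above the 3 old ad libitum mice (1.06% of genes tested). Both restricted groups also lay above the young mice (7.38% of genes tested for acute and 4.99% for long-term restriction). The share above all 6 mice fed ad libitum was not computed, and young and old ad libitum mice overlapped. The log2 fold change against old ad libitum mice was 0.68 ± 0.14 for long-term and 0.62 ± 0.15 for acute restriction, from 97 to 583 UMIs per mouse.

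**Figure D1:**
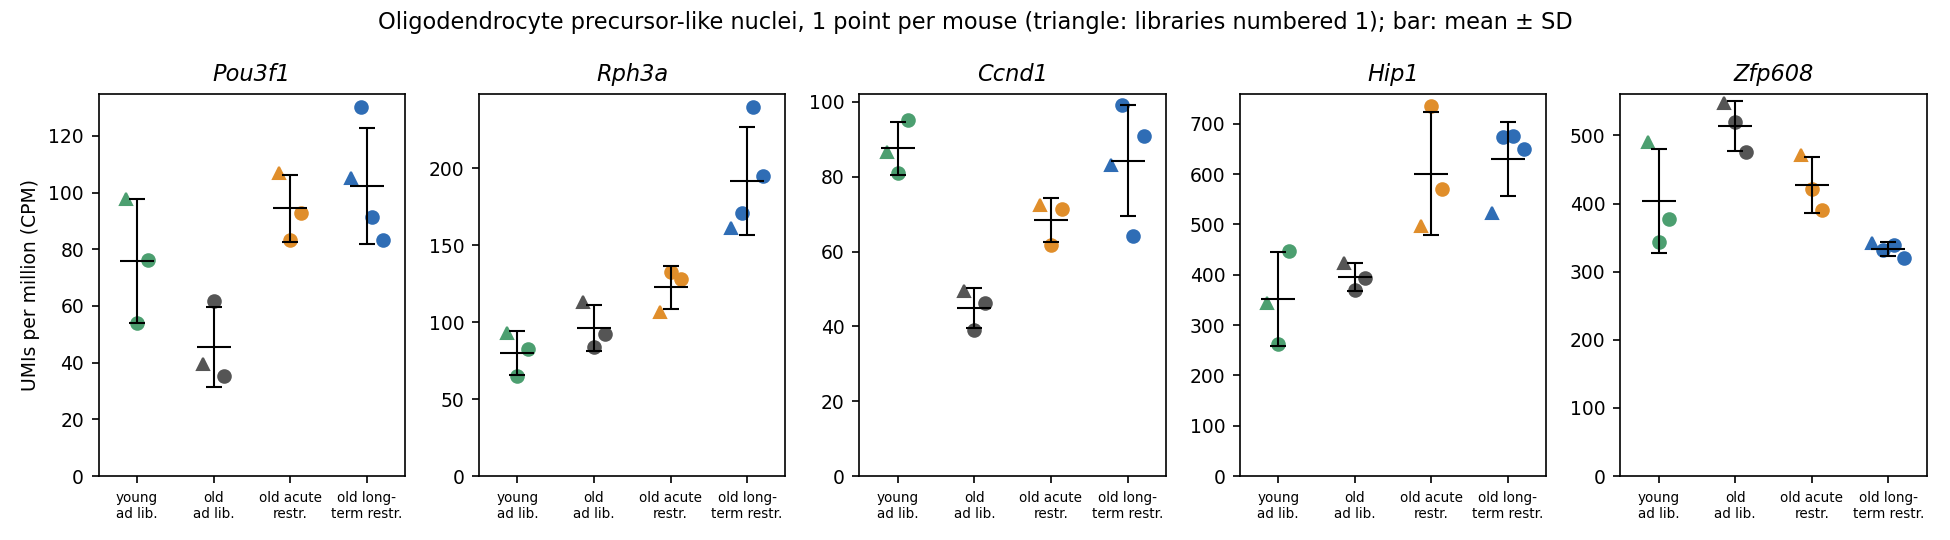
Level of each member in oligodendrocyte precursor-like nuclei, in UMIs per 1000000 UMIs (vertical axis, from 0), with 1 point per mouse, triangles for libraries numbered 1, and a bar for the mean ± SD of each of the 4 groups. The mean of the old ad libitum mice is the lowest for Pou3f1 and Ccnd1, though 1 young mouse lies among them for Pou3f1. Restricted mice are highest for Hip1, long-term restriction mice are highest for Rph3a and lowest for Zfp608.

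In these comparisons with old ad libitum mice, the choice of the genes fixes what the members show. For long-term restriction, edgeR called 4 of 9120 genes in precursor-like nuclei (0.0439%) at an adjusted p below 0.05, 3 of them higher (0.0329%) and 1 lower (0.011%), and these 4 were Rph3a, Pou3f1, Ccnd1 and Zfp608. That count depended on the settings: it was 0 without old ad libitum replicate 4 and 33 without the libraries numbered 1, the lowest and highest of 23 alternatives. The members were chosen from earlier calls in this same comparison of these libraries with other clusters, Hip1 included, so the adjusted p-values are a description and test nothing. Just inside it were Ccnd1 (0.0264) and Zfp608 (0.0312). Hip1 was at 0.0736 with the clusters used here and was thus just outside, next to Arhgap31 (0.0727) and to Rhoq, Tpm1, Grk3 and Inka2 (each 0.0736). The side of the threshold moved with the settings: over 23 alternatives Rph3a was inside in 21, Pou3f1 in 20, Ccnd1 in 18, Zfp608 in 17 and Hip1 in 14. Groups did not overlap for 4 members that were higher, where 3.51% of all genes tested were higher without overlap, and for Zfp608, where 4.44% were lower without overlap. Relative to old ad libitum mice, all 7 restricted mice were higher for Pou3f1, Ccnd1 and Hip1 (1.06% of genes tested) and lower for Zfp608 (1.57%). For acute restriction alone, 14 genes (0.154%) were called, Pou3f1 among them (in 18 of 23 alternatives as well), and non-overlap was 5.41% for higher and 8.12% for lower genes. Hip1 was not called there (edgeR adjusted p 0.127), but 8 of 23 alternatives called it, with log2 fold changes of 0.47 to 0.83 over all 23. Old against young ad libitum mice gave 186 calls (2.04%), Ccnd1 among them. Ccnd1 was called in 18 of 23 alternatives, and not with median UMIs as a covariate, with the length trend removed or without young replicate 3, old ad libitum replicate 2 or old ad libitum replicate 4. There the old mice were lower without overlap for Ccnd1 (12.6% of genes tested), and the log2 fold changes of the others were -0.68 ± 0.24 for Pou3f1, 0.30 ± 0.20 for Rph3a, 0.23 ± 0.16 for Hip1 and 0.41 ± 0.13 for Zfp608. With median UMIs as a covariate those of Rph3a and Hip1 turned to -0.275 and -0.219. Over 23 alternatives that of Pou3f1 was -0.97 to -0.18 and that of Zfp608 0.19 to 0.60. These comparisons all use the old ad libitum libraries that chose the genes, and none of their values is independent of that choice.

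Long-term restriction mice can also be set beside acute and young mice, again as a description because the long-term libraries took part in the choice. Against acute restriction, 0 of 9120 genes (0%) were called by edgeR, 423 had an unadjusted p below 0.05, and DESeq2 called 1. Rph3a was higher without overlap (2.92% of genes tested) and Zfp608 was lower without overlap (2.58%), with a log2 fold change of -0.36 ± 0.12. The log2 fold changes were 0.10 ± 0.19 for Pou3f1, 0.28 ± 0.17 for Ccnd1 and 0.06 ± 0.14 for Hip1. Their 95% intervals were -0.27 to 0.47, -0.06 to 0.62 and -0.21 to 0.34. Beside young mice, the long-term group was higher without overlap for Rph3a and Hip1 (4.99% of genes tested) and lower without overlap for Zfp608 (7.79%), and the groups overlapped for Pou3f1 and Ccnd1.

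The comparison of acute restriction with young ad libitum mice was tested: its fold changes use none of the 7 libraries that chose the genes, although the fit estimates the spread of each gene over all 13 libraries, those 7 included. These groups differ in age and in diet, which cannot be told apart. Hip1 was higher in precursor-like nuclei of acute restriction mice, with a mean of 601 ± 123 CPM (SD, n = 3) against 351 ± 93.3 CPM (n = 3). This is a log2 fold change of 0.85 ± 0.16, with an adjusted p of 0.00338 in edgeR. The lowest acute restriction mouse (497 CPM) lay above the highest young mouse (448 CPM). It was the only member called, 1 of 5, where 234 of 9120 genes (2.57%) were called, 196 of them higher (2.15%) and 38 lower (0.417%). Over 23 alternatives the count of genes called ran from 69 with the length trend removed, and 77 with median UMIs per nucleus as a covariate, to 473 with a term for number 1. The Hip1 change was 0.94 without the libraries numbered 1 (edgeR adjusted p 0.000569) and 0.62 with median UMIs per nucleus as a covariate (adjusted p 0.044). Fitted on the 6 libraries compared alone, and thus with a spread free of the libraries that chose the genes, Hip1 missed the threshold (0.83, edgeR adjusted p 0.0595).

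Rph3a did not pass in the same comparison, at 123 ± 13.8 CPM against 80.2 ± 14.3 CPM, a log2 fold change of 0.68 ± 0.20 and an edgeR adjusted p of 0.0557. The groups did not overlap (7.38% of genes tested were higher without overlap). It lay close to the threshold: 9 of 23 alternative fits called it, among them the fit without the libraries numbered 1 (0.89, edgeR adjusted p 0.0236), that with the replicate number as a block (0.68, adjusted p 0.0255) and that with a term for number 1 (0.68, adjusted p 0.0273). Libraries numbered 1 deviated together across the groups. The fit with median UMIs per nucleus as a covariate gave 0.40 (adjusted p 0.396). Young precursor-like nuclei were shallower than acute ones in every mouse, and the part of depth in these differences was not tested beyond that fit. Ccnd1 was lower without overlap in the acute group (11.7% of genes tested), with a log2 fold change of -0.27 ± 0.20 (95% interval -0.65 to 0.12, edgeR adjusted p 0.555). With the length trend removed the change of Ccnd1 was 0.008. Pou3f1 overlapped between the groups (0.39 ± 0.23, interval -0.06 to 0.83, adjusted p 0.427 in edgeR), as did Zfp608 (0.16 ± 0.13, interval -0.10 to 0.42, adjusted p 0.611 in edgeR).

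**Figure D2:**
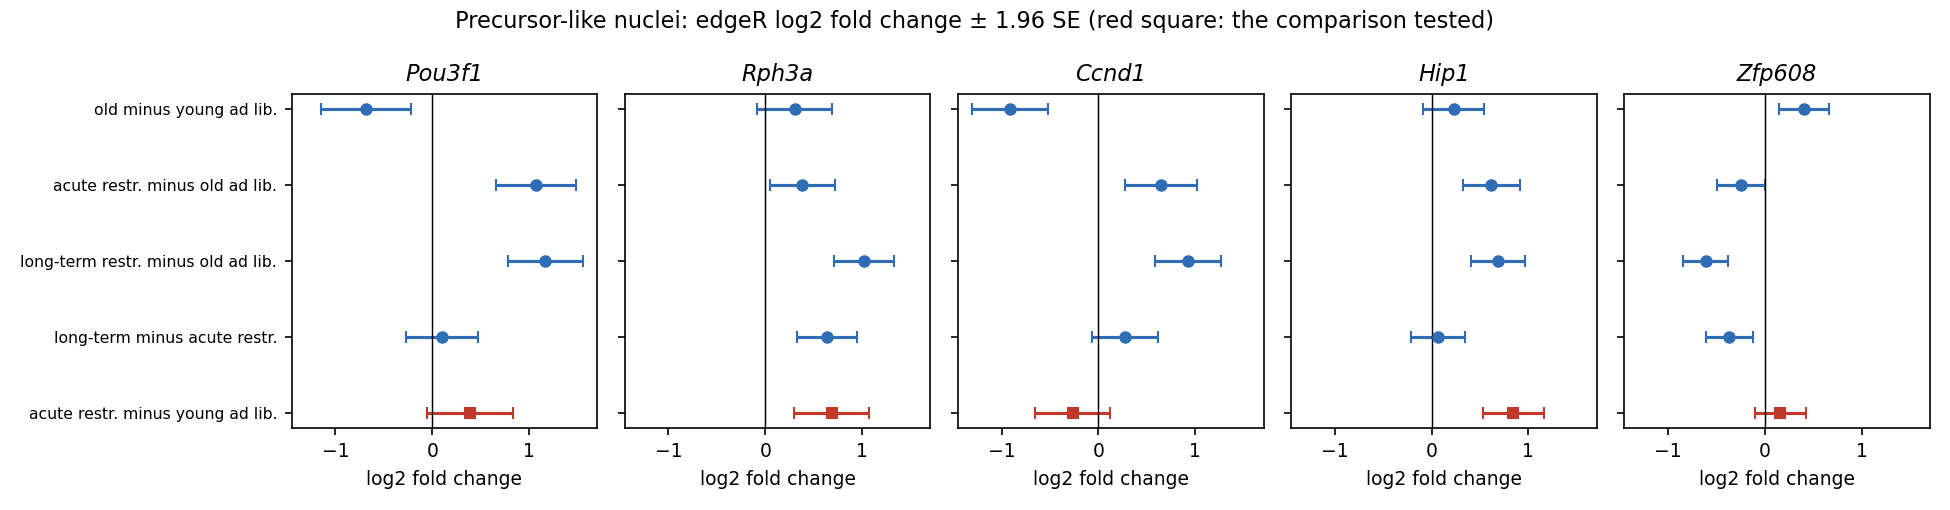
Log2 fold change of each member in oligodendrocyte precursor-like nuclei (horizontal axis) for 5 comparisons (vertical axis), with whiskers of 1.96 standard errors derived from the edgeR F statistic. Red squares mark acute restriction against young mice, the comparison tested, where the interval of Hip1 lies farthest from 0, and blue circles are descriptions of comparisons that share libraries with the choice of the genes.

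The share of precursor-like nuclei with at least 1 UMI was compared after each nucleus was thinned to 2000 UMIs. These shares rest on the same UMIs as the levels above, from libraries that include those that chose the genes. They are a description, and shares of other genes were not computed. Thinning left out 125 nuclei of young, 11 of old ad libitum, 25 of acute restriction and 22 of long-term restriction mice. For Hip1 the mean share was 48.1% ± 9.50 (SD, n = 3) in young, 50.0% ± 1.34 in old ad libitum, 66.6% ± 9.26 in acute and 67.1% ± 4.38 (n = 4) in long-term restriction mice. For Rph3a it was 12.8% ± 0.804, 16.1% ± 1.88, 19.4% ± 3.14 and 30.2% ± 5.07 in the same order. For Rph3a the 4 long-term restriction mice had the highest shares.

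The shares of Pou3f1 were 15.5% ± 5.26 in young, 7.13% ± 3.09 in old ad libitum, 17.9% ± 2.08 in acute and 17.0% ± 2.43 in long-term restriction mice. Those of Ccnd1 were 15.5% ± 1.65, 7.19% ± 0.785, 10.8% ± 2.26 and 16.1% ± 3.97, and those of Zfp608 50.6% ± 7.85, 57.7% ± 0.764, 57.6% ± 4.48 and 44.7% ± 1.84. In these shares restricted mice lay above old ad libitum mice for Pou3f1 and Ccnd1. For Zfp608 the acute group overlapped the old ad libitum group and the long-term group lay below it. Before thinning the mean shares of Zfp608 were 54.5%, 83.1%, 70.1% and 65.6%, which put young mice lowest. Those of the other members were 18.1%, 16.2%, 25.6% and 28.2% for Pou3f1 and 20.1%, 16.9%, 18.2% and 25.0% for Ccnd1. For Rph3a they were 17.6%, 29.6%, 27.4% and 44.3%, and for Hip1 56.1%, 76.6%, 80.8% and 84.4%. Free RNA can give a UMI to a nucleus that does not express a gene, so shares in other classes are set beside these. Over all mice, Pou3f1 had a UMI in 14.6% of thinned precursor-like nuclei and in 0.362% of granule-like nuclei, and Ccnd1 in 12.7% and 1.53%. Rph3a had a UMI in 20.4% of precursor-like and 0.871% of oligodendrocyte-like nuclei. Hip1 had a UMI in 58.6% of precursor-like, 40.1% of oligodendrocyte-like, 33.7% of astrocyte-like and 4.24% of granule-like nuclei. For Zfp608 the shares were 52.1%, 37.3%, 53.0% and 45.8% in that order, so these classes give no background share for it. The middle library had a median of 3304.5 UMIs per precursor-like nucleus, 6721 per granule-like and 1889 per oligodendrocyte-like nucleus.

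**Figure D3:**
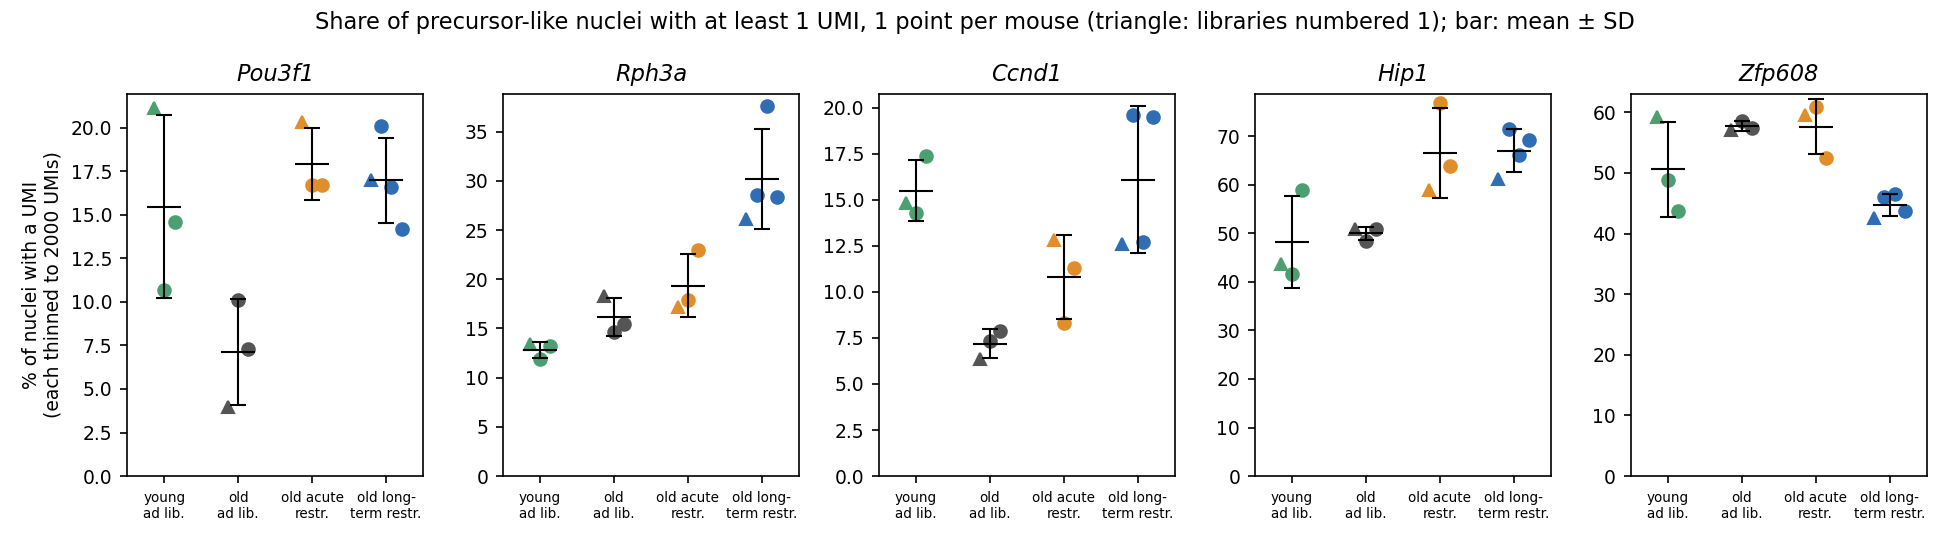
Share of precursor-like nuclei with at least 1 UMI of each member after thinning to 2000 UMIs per nucleus (vertical axis, percent, from 0), with 1 point per mouse, triangles for libraries numbered 1 and a bar for the mean ± SD of each group. The long-term restriction mice sit at 26.1% to 37.6% for Rph3a, above the other 9 mice, and at 42.6% to 46.5% for Zfp608.

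RNA of other cell types in the precursor-like nuclei was followed through its markers. The 7 markers of any neuron summed to 2383 to 3108 CPM in young, 2872 to 3695 in old ad libitum, 3092 to 3424 in acute and 2967 to 3690 CPM in long-term restriction mice, so the old groups overlapped. Rph3a and Zfp608 are also expressed in neurons. The 10 oligodendrocyte markers summed to 112 to 154, 153 to 191, 142 to 259 and 131 to 182 CPM in the same order, and the 8 markers of committed precursors to 1283 to 1676, 1380 to 1472, 1380 to 1520 and 1280 to 1564 CPM. Of the other lists, 2 of 8 macrophage markers (Pf4 and Cbr2), 1 of 10 mural (Kcnj8), 1 of 9 fibroblast (Col1a1), 3 of 7 Cajal-Retzius (Lhx1, Lhx5 and Nhlh2) and 1 of 7 ependymal markers (Ccdc153) were at 0 in all 13 libraries. Young and acute restriction mice overlapped in the markers of any neuron only between 3092 and 3108 CPM. Other neuronal lists were higher in acute restriction than in young mice without overlap: the 11 inhibitory neuron markers (9655 to 9794 against 7242 to 8973 CPM), the 7 CA3 markers (911 to 961 against 787 to 818 CPM) and the 9 subicular or cortical markers (1100 to 1255 against 911 to 1059 CPM). The 10 granule neuron markers (2160 to 2258 against 1945 to 2251 CPM) and the 7 CA1 markers (166 to 240 against 124 to 180 CPM) overlapped. Among the named classes Rph3a is highest in inhibitory neuron-like nuclei. The part of these neuronal markers in the Hip1 and Rph3a values was not tested.

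Across the 13 named cell classes, Pou3f1 and Ccnd1 were highest in precursor-like nuclei. Pou3f1 averaged 81.3 ± 27.6 CPM there (SD over 13 mice), then 35.4 ± 9.55 in oligodendrocyte-like and 34.4 ± 9.99 CPM in CA1 pyramidal neuron-like nuclei, which overlapped each other within their SD. In the other 10 named classes its mean was 20.7 CPM or less, down to 1.78 CPM in granule-like and 1.51 CPM in inhibitory neuron-like nuclei. Ccnd1 averaged 72.3 ± 19.3 CPM in precursor-like nuclei, 28.2 ± 18.2 in endothelial-like (9 mice) and 28.2 ± 15.7 CPM in microglia-like nuclei, and 18.5 CPM or less elsewhere. For both genes the gap between the first and the next named class exceeded their combined SD. The 14 clusters left unnamed reached higher levels of Pou3f1 than the next named class, with pooled values of 63.5 CPM in cluster 21 (1039 nuclei), 54.1 CPM in cluster 6 (3885 nuclei) and 42.6 CPM in cluster 12 (1856 nuclei). Cluster 21 was thus above the 3 old ad libitum values in precursor-like nuclei. Ccnd1 was at 15.1 CPM or less in all 14.

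The other members were shared more widely. Rph3a was highest in inhibitory neuron-like nuclei (187 ± 25.7 CPM), then in precursor-like (128 ± 51.0) and granule-like nuclei (105 ± 10.3), which overlapped. It was at 6.67 CPM or less in CA1-like, oligodendrocyte-like and microglia-like nuclei. Hip1 was highest in endothelial-like nuclei (852 ± 253 CPM, 9 mice), followed by precursor-like (505 ± 148) and oligodendrocyte-like nuclei (274 ± 55.4), and lowest in granule-like nuclei (23.4 ± 3.66 CPM). Zfp608 ranged least among the named classes: it was at 534 ± 59.6 CPM in Cajal-Retzius-like nuclei (7 mice), 437 ± 55.9 in astrocyte-like and 413 ± 79.0 CPM in precursor-like nuclei, the latter overlapping, and at 171 ± 26.7 CPM in CA3-like nuclei, the lowest named class. The unnamed clusters ran from 15.1 CPM (cluster 7, 3607 nuclei) to 641 CPM (cluster 32, 177 nuclei) for Zfp608, from 6.32 to 163 CPM for Rph3a and from 23.9 to 201 CPM for Hip1. Cluster 32 also gave the 6.32 CPM of Rph3a. Of its barcodes 88.8% came from 1 library, so both of its values rest mainly on 1 mouse.

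**Figure D4:**
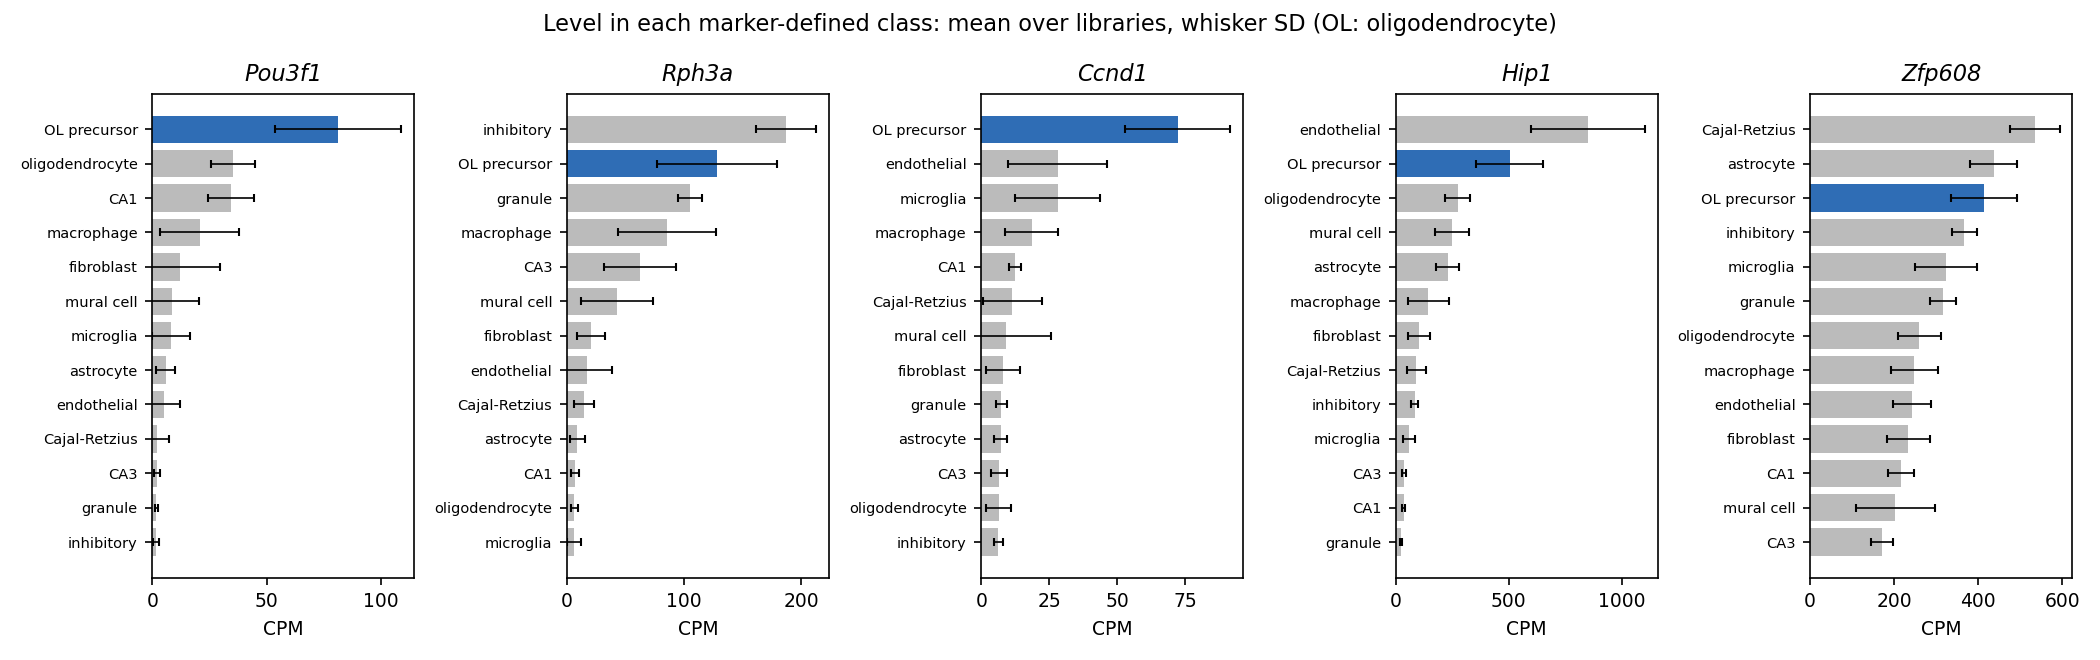
Mean level of each member in 13 marker-defined classes, in UMIs per 1000000 UMIs (horizontal axis, from 0), sorted within each gene, with whiskers for the SD over libraries and precursor-like nuclei (OL precursor) in blue. Precursor-like nuclei rank first for Pou3f1 and Ccnd1, next to first for Rph3a and Hip1, and after Cajal-Retzius-like and astrocyte-like nuclei for Zfp608.

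The other classes come from nuclei that took no part in the choice of the genes, though from the same mice, and all 5 comparisons were tested in them. Every member passed the filter on low counts in CA1-like, astrocyte-like, granule-like and oligodendrocyte-like nuclei. Pou3f1 did not pass in CA3-like and inhibitory-like nuclei, and only Hip1 and Zfp608 passed in endothelial-like, microglia-like and mural-like nuclei. Calls over all genes give the scale. For acute restriction against young mice they reached 4.25% of genes in oligodendrocyte-like, 3.05% in granule-like, 1.26% in astrocyte-like, 0.306% in microglia-like, 0.285% in inhibitory-like and 0.0249% in CA3-like nuclei. For old against young ad libitum mice they reached 7.77% in oligodendrocyte-like, 2.85% in granule-like, 1.3% in microglia-like, 0.409% in astrocyte-like and 0.0899% in inhibitory-like nuclei. Acute restriction against old ad libitum mice gave 1.83% in oligodendrocyte-like, 0.0784% in astrocyte-like, 0.0255% in microglia-like and 0.0179% in granule-like nuclei. Long-term restriction gave 0.343% in oligodendrocyte-like and 0.051% in microglia-like nuclei against old ad libitum mice, and 0.0967% in oligodendrocyte-like nuclei against acute restriction. The other pairs of class and comparison gave 0 calls by edgeR, with 37 to 2610 genes at an unadjusted p below 0.05. Of 170 tests of a member, 1 was called. In oligodendrocyte-like nuclei Hip1 rose between young and acute restriction mice, from 162, 197 and 234 CPM to 269, 369 and 314 CPM, without overlap (12.3% of genes tested were higher without overlap). Its log2 fold change was 0.61 ± 0.16 (edgeR adjusted p 0.0208), where 484 of 11377 genes (4.25%) were called. That call was lost without young replicate 2 (0.58, edgeR adjusted p 0.15), without acute restriction replicate 2 (0.50, adjusted p 0.193), with median UMIs as a covariate (0.53, adjusted p 0.126) and with the gene length trend removed (0.41, adjusted p 0.124). The young replicate 1 value rests on 15 UMIs from 48 nuclei. Old ad libitum mice (247 to 307 CPM) lay above the young mice as well (11.4% of genes tested were higher without overlap). So did long-term restriction mice (292 to 326 CPM), for which the share over all genes was not computed in this class. Hip1 in oligodendrocyte-like nuclei differed between long-term restriction and old ad libitum by 0.15 ± 0.14 (interval -0.11 to 0.42, edgeR adjusted p 0.825).

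Zfp608 was lower in oligodendrocyte-like nuclei of acute restriction mice (250, 221 and 190 CPM) than of old ad libitum mice (297, 315 and 316 CPM), without overlap (7.47% of genes tested). The log2 fold change was -0.59 ± 0.16 with an edgeR adjusted p of 0.0511, where 208 of 11377 genes (1.83%) were called, so it did not pass. It lay close to the threshold: 9 of 22 alternatives called it (-0.64 to -0.44 over all 22). Among them were the fit of the 6 libraries compared (edgeR adjusted p 0.00447) and that with no filter on low counts (0.00969). The replicate block (-0.64, edgeR adjusted p 0.0238) and a term for number 1 (-0.60, adjusted p 0.0289) called it too. With median UMIs as a covariate it was -0.44 (edgeR adjusted p 0.688). Long-term restriction mice had 197, 203, 299 and 251 CPM and overlapped the old ad libitum group (-0.38 ± 0.15, edgeR adjusted p 0.361). In granule-like nuclei Zfp608 was at 272 ± 22.9 CPM in young and 335 ± 11.4 CPM in old ad libitum mice, without overlap (7.21% of genes tested), with a log2 fold change of 0.46 and an edgeR adjusted p of 0.0519. Of 22 alternatives 6 called it, among them DESeq2 (adjusted p 0.0107). The replicate block (0.54, edgeR adjusted p 0.0188) and a term for number 1 (0.46, adjusted p 0.0172) did so as well. Median UMIs as a covariate lowered it to 0.22 (edgeR adjusted p 0.689) and removal of the length trend to 0.28 (0.13). Neither restricted group lay apart from the old ad libitum mice there (294 to 345 CPM and 314 to 357 CPM). The acute group lay above the young mice (245 to 286 CPM) without overlap (7.44% of genes tested), with a log2 fold change of 0.41 ± 0.12. It did not pass (edgeR adjusted p 0.0667). Of 22 alternatives 5 called it, and median UMIs as a covariate gave 0.33 (edgeR adjusted p 0.127). In CA3-like nuclei Zfp608 was at 190 to 231 CPM in old ad libitum mice, and all 7 restricted mice lay lower (0.822% of genes tested), at 169 to 176 CPM under acute and 142 to 189 CPM under long-term restriction. Its log2 fold changes there did not pass: -0.28 ± 0.15 and -0.32 ± 0.14, each at an edgeR adjusted p of 1. Young mice had 130 to 160 CPM. Long-term restriction mice were also lower than old ad libitum mice without overlap in endothelial-like nuclei (172 and 178 against 264 and 275 CPM, 16.1% of genes tested) and in mural-like nuclei (70.2 to 187 against 324 and 342 CPM, 7.92% of genes tested). These values rest on 4 to 44 UMIs per mouse and did not pass either, with an edgeR adjusted p of 0.999 in both.

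Hip1 in astrocyte-like nuclei was at 181 ± 34.8 CPM in young and 277 ± 78.0 CPM in acute restriction mice (log2 fold change 0.62, edgeR adjusted p 0.0822), and 145 of 11479 genes (1.26%) were called in that comparison. Without acute restriction replicate 2 it was 0.37 (edgeR adjusted p 0.401), and 5 of 22 alternatives called it, among them the fit with no filter (0.66, adjusted p 0.0104). Those with the replicate block (0.61, edgeR adjusted p 0.048) and a term for number 1 (0.61, adjusted p 0.028) called it too. In microglia-like nuclei Hip1 was at 36.9, 40.6 and 23.4 CPM in old ad libitum, 42.6, 75.7 and 52.8 in acute and 79.1, 68.9, 65.2 and 78.6 CPM in long-term restriction mice. All 7 restricted mice lay above the 3 old ad libitum mice (1.22% of genes tested), while the young mice, at 117, 18.8 and 47.8 CPM, overlapped them. These microglia-like values rest on 2 to 22 UMIs per mouse and did not pass, with log2 fold changes of 1.03 ± 0.46 for long-term (edgeR adjusted p 0.759) and 0.72 ± 0.47 for acute restriction (adjusted p 0.978). For the genes with neuronal expression, Rph3a was at 189 ± 19.3 CPM in old ad libitum, 209 ± 22.3 in acute and 175 ± 31.7 CPM in long-term restriction mice in inhibitory-like nuclei, with overlap. In granule-like nuclei it was at 100 ± 7.47, 109 ± 5.58 and 103 ± 8.51 CPM. Pou3f1 in oligodendrocyte-like nuclei was at 33.2 ± 6.06 CPM in old ad libitum and 33.8 ± 5.65 CPM in long-term restriction mice, a log2 fold change of -0.06 (interval -0.49 to 0.37).

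Among themselves, Hip1 and Rph3a followed each other most closely. Over the 13 summed precursor-like samples, Pearson's r of log2 CPM was 0.87 between Hip1 and Rph3a, and 0.66 after each group's mean had been removed. Ccnd1 and Pou3f1 had an r of 0.68 over all samples and 0.09 within groups, and Zfp608 and Ccnd1 -0.72 and 0.06. Zfp608 turned sign: its r was -0.42 with Pou3f1 and -0.36 with Rph3a over all samples, and 0.61 and 0.46 within groups. The values over all samples include the group differences that chose the genes. These points share libraries and depth. The r with log2 median UMIs per nucleus was 0.53 for Rph3a, 0.48 for Hip1, 0.45 for Zfp608, -0.22 for Pou3f1 and -0.46 for Ccnd1. Within groups, the SD of log2 CPM was 0.32 for Pou3f1, 0.25 for Rph3a and Hip1, 0.18 for Ccnd1 and 0.17 for Zfp608.

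By Pearson's r of log2 CPM over the same 13 samples, the 3 genes most like Pou3f1 were Slc35b1 (0.85), Pdia4 (0.84) and Nt5dc3 (0.84). Those most like Rph3a were Zeb1 (0.93), Xylt1 (0.89) and Sntg1 (0.89). For Ccnd1 they were Spred1 (0.84), Smarcd1 (0.83) and Gpr85 (0.81), for Hip1 Nrxn2 (0.95), Rab31 (0.93) and Olfm2 (0.92), and for Zfp608 Rgma (0.92), Asrgl1 (0.92) and Kcnj10 (0.85). Over the 13 classes instead, the closest gene to Pou3f1 was Gm2164 (0.86), the antisense gene that overlaps it. Cdh6 (0.82) and Gm14114 (0.81) followed. Over classes the genes closest to Rph3a were Tafa2 (0.90), Gnal (0.87) and Adarb2 (0.87), and those closest to Ccnd1 were Tafa4 (0.95), Wdr1 (0.93) and Amz1 (0.93). Pgp (0.92), S100a16 (0.89) and Selenok (0.88) were closest to Hip1, and Scaper (0.84), Ttc4 (0.77) and Rfx7 (0.77) to Zfp608. Several of these genes are lowly counted, and the 13 points share genome-wide differences between classes.

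The partners and relatives of the members were looked up in 6 lists. Of 22 genes of the cyclin D, CDK and RB pathway other than Ccnd1, 9 passed the filter in precursor-like nuclei. None of the 9 was called in any of the 5 comparisons by edgeR. At most 2 of the 9 had an unadjusted p below 0.05 in one comparison. That was long-term against acute restriction, where 423 of 9120 genes had one. Their median log2 fold change for acute restriction against young mice was -0.19, against -0.04 over all genes tested. Ccnd2, another D-type cyclin, had 168 UMIs in all and Ccnd3 had 94. Ccnd2 was at 16.9, 36.6, 31.4 and 24.2 CPM under long-term and 7.76, 15 and 3.91 CPM under acute restriction. These groups did not overlap (2.92% of genes tested were higher without overlap). Old ad libitum mice had 19.1, 14.8 and 13.2 CPM and young mice 23.9, 10.8 and 12.7 CPM. These values rest on 4 to 24 UMIs per mouse. Of 15 proliferation genes 1 passed the filter, Mcm6. Its log2 fold change was -1.13 ± 0.55 for acute restriction against young mice (edgeR adjusted p 0.314) and -1.34 against old ad libitum mice. Both had an unadjusted p below 0.05, and Mcm6 was called in none of the 5 comparisons. For long-term restriction against old ad libitum mice it was -0.66. Mki67 had 8 and Top2a 19 UMIs over all 2809 nuclei, so the number of dividing nuclei could not be measured at this depth.

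Of 28 POU and oligodendroglial transcription factors 23 were tested. Sox5, a SOXD factor of precursor cells, rose in acute restriction against young mice (0.47 ± 0.10, edgeR adjusted p 0.00662) and in old against young ad libitum mice (0.43 ± 0.10, adjusted p 0.0226). No other member of the list was called in any of the 5 comparisons, and the list's median for acute restriction against young mice was -0.18, against -0.04 over all genes tested. Over all genes 2.57% and 2.04% were called in the comparisons in which Sox5 rose, and with median UMIs as a covariate 77 and 2 genes were called in all. The POU3 paralogs were thin: Pou3f2 had 333 UMIs, Pou3f4 had 46 and Pou3f3 had 0. The log2 fold change of Pou3f2 was -0.12 ± 0.26 for long-term restriction against old ad libitum mice (edgeR adjusted p 0.959). For acute restriction against young mice it was -0.81 ± 0.32 (edgeR adjusted p 0.18).

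Of 29 genes of rabphilin's RAB3 and vesicle release machinery 19 were tested. The vesicle priming factors Unc13c (0.74 ± 0.12, edgeR adjusted p 0.000506) and Unc13b (0.62 ± 0.17, adjusted p 0.0383) rose in acute restriction against young mice. Unc13b also rose in old against young ad libitum mice (0.63 ± 0.17, edgeR adjusted p 0.0402). No gene of the list was called in the other comparisons. The background in these comparisons is the one given beside Sox5. The list's median was 0.06 for acute restriction against young and -0.07 for long-term restriction against old ad libitum mice, where the medians over all genes tested were -0.04 and 0.00.

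In the list of clathrin endocytosis 16 of 18 genes were tested and none was called by edgeR in any comparison, with 0 or 1 unadjusted p below 0.05 in each. Hip1r, the paralog of Hip1, was at 126 to 207 CPM, with a log2 fold change of 0.17 ± 0.17 for acute restriction against young mice and -0.08 ± 0.15 for long-term restriction against old ad libitum mice. All 12 genes of the Zfp608 paralog and cohesin list were tested and none was called, again with 0 or 1 unadjusted p below 0.05 in each comparison. Zfp609 was at 149 to 229 CPM and had a log2 fold change of 0.07 ± 0.13 for long-term restriction against old ad libitum mice.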

How the data were processed

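The deposited matrices hold raw UMI counts per gene and nucleus for 13 libraries (13 mice), written by Cell Ranger 4.0.0 against mm10, per the submitters' processing notes. Intron counting, strand, ambient RNA correction and doublet removal by the authors are not given in the sources used here. The members and all lists were chosen with earlier results of these data known. Barcodes with under 500 genes or over 5% mitochondrial UMIs were dropped (105427 of 105759 passed), and Scrublet's highest-scoring 0.8% per 1000 barcodes (7386 in all) were removed as doublets. Nuclei were clustered with scanpy 1.11.5 in Python 3.11.15 (2000 variable genes without the members, 30 components, 20 neighbours, Leiden resolution 1 with leidenalg 0.10.2). Of 33 clusters 19 were named, in 13 classes, from at least 3 raised markers with a mean log2 fold of at least 1, and 17794 nuclei in 14 clusters were left out. Names are rebuilt and may differ from the authors' own. Granule-like nuclei pool several clusters, and the CA3-like cluster also had raised mossy cell markers.

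UMIs were summed per mouse and class (at least 20 nuclei). CPM values are per 1000000 summed UMIs. The sums were tested with edgeR 4.0.16 in R 4.3.3 (TMM, filterByExpr, robust quasi-likelihood, all 13 libraries in 1 fit), Benjamini-Hochberg adjusted within a class, with calls at an adjusted p below 0.05. DESeq2 1.42.0 and other settings served as alternatives. Log2 fold changes are given ± SE, with 95% intervals of 1.96 SE. For edgeR fits the SE was derived as the absolute log2 fold change divided by the square root of the F statistic. The intervals use a normal quantile, whereas the test uses the F distribution. The fitting code was tested on simulated data first, for acute restriction against young mice in precursor-like nuclei. There edgeR called 42 of 100 genes changed by a log2 fold of 1 and 82 of 100 changed by 2. It made 10 false calls among 9120 genes. A member left uncalled may thus still differ. Nothing in the labels says more than that samples are separate mice. Replicate numbers are those of the sample titles. For 4 of 13 libraries (young and acute restriction replicates 2 and 3) the name of the deposited file has another number, and the 4 libraries numbered 1 have it in both. Named genes were the 5 members, the 3 genes closest to each over samples and over classes, and every list gene called in precursor-like nuclei. Paralogs, markers and genes near the threshold are named beside that rule, chosen after their values were seen. Intervals on counts cover counting error only.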

Additional observations from a re-analysis of the deposited data

Results flagged for a closer look

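In a search of 35 sets of 4 long-term restriction mice (1 per member and class tested) for a mouse that stands apart, 1 was found, and chance alone marks about 1 in 20. Long-term restriction replicate 1 had 522 CPM of Hip1 in precursor-like nuclei, while the other 3 mice had 649 to 675 CPM. Its gap to the next mouse was 0.83 of the range of the group, against a critical value of 0.829. Without it, the log2 fold change of Hip1 for long-term restriction against old ad libitum mice was 0.76, against 0.68 with it.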

How the results depend on the processing

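For acute restriction against young mice in precursor-like nuclei, Hip1 was called in 22 of 23 alternatives and its log2 fold change was 0.62 to 1.08. Fitting only the libraries compared gave 0.83 and ended the call. Rph3a was called by DESeq2 (0.69), with no filter on low counts (0.77), with members allowed among the variable genes (0.79) and without the libraries numbered 1 (0.89, added after seeing the data). Leaving out 1 mouse gave it 0.58 to 0.84, called without young replicate 1, old ad libitum replicate 1 or long-term restriction replicate 3. The log2 fold change of Ccnd1 turned from -0.27 to 0.0079 with the length trend removed. Pou3f1, Ccnd1 and Zfp608 were called in 0 of 23 alternatives.

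Replicate numbers as a whole did not pair the mice: 8 of 16 same-numbered pairs had a correlation of deviations over 0.1, and 4 of 13 libraries correlated best with their own number. The libraries numbered 1 did deviate together in all 4 groups: their 6 pairs had 0.214 to 0.391, and their 27 pairs with other numbers -0.259 to -0.014. Of the 10 other same-numbered pairs 2 were over 0.1 (-0.105 to 0.173). What number 1 marks is not given in the sources used here. With the replicate block, Rph3a was called at 0.68 (edgeR adjusted p 0.0255), and calls numbered 431 for acute restriction against young, 23 for long-term and 51 for acute restriction against old ad libitum, 638 for old against young, 3 for long-term against acute restriction and 5 for members in other classes. A term for number 1 called Rph3a too (0.68, adjusted p 0.0273) and gave, in the same order, 473, 30, 62, 679, 5 and 6 calls. Without the libraries numbered 1, calls numbered 33 and 82 for the restriction comparisons with old ad libitum, 498 for old against young, 6 for long-term against acute restriction and 3 for members in other classes.

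The 234 genes called for acute restriction against young mice were 443 with no filter, 89 in the libraries compared, 77 with median UMIs as a covariate, 69 with the length trend removed and 109 to 285 leaving out 1 mouse. For long-term restriction against old ad libitum mice the 4 calls became 11 (DESeq2), 25 (no filter), 27 (libraries compared), 10 (median UMIs), 12 (length trend), 10 (members allowed among the variable genes) and 0 to 13 (1 mouse left out). The 14 calls for acute restriction became 36, 36, 8 and 28 with no filter, the libraries compared, median UMIs and the length trend, 7 with doublets kept and 3 to 22 leaving out 1 mouse. The 186 calls for old against young mice became 561 with no filter, 2 with median UMIs, 32 with the length trend and 33 to 368 leaving out 1 mouse. For long-term against acute restriction 0 calls became 1 in DESeq2 and in the libraries compared, 7 with no filter and 0 to 3 leaving out 1 mouse. The single member call in other classes became 5 in DESeq2, 3 with no filter, 2 in the libraries compared and with the length trend, 0 with median UMIs and 0 to 4 leaving out 1 mouse. The cause of these changes was not tested. With median UMIs as a covariate, old minus young was -0.28 for Rph3a and -0.22 for Hip1. Over 23 alternatives that comparison gave -0.97 to -0.18 for Pou3f1 and 0.19 to 0.60 for Zfp608, called in 0 and 5. Requiring 2 precursor markers per nucleus kept all 2809 nuclei and is not counted among the 23. Depth limits Pou3f1, Ccnd1 and Rph3a most, which rest on 20 to 176 UMIs per mouse.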

Other observations

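A cluster whose raised markers are those of committed oligodendrocyte precursors stayed unnamed because 72.5% of its 597 barcodes had been marked as doublets. Its 164 remaining nuclei gave a pooled view of the members, without replicate error. The median barcode of the cluster, doublets included, had 1.37 times the median UMIs of its library. In the precursor-like cluster this was 0.507 times. RNA of other cell types may thus remain in the values of these 164 nuclei, and its part was not tested. Ccnd1 was at 15.1 CPM there (15 UMIs, 95% Poisson interval 8.45 to 24.9, counting error only), and Pou3f1 was at 19.1 CPM (19 UMIs, 11.5 to 29.9). The precursor-like means were 72.3 and 81.3 CPM. Hip1 was at 201 CPM (174 to 231) against 505 CPM and Rph3a at 72.5 CPM (56.7 to 91.2) against 128 CPM, whereas Zfp608 was at 423 CPM (383 to 465) against 413 CPM.

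By group, Rph3a in that cluster was at 58.9 CPM (33.0 to 97.2) in young, 45.8 CPM (25.7 to 75.6) in old ad libitum, 135 CPM (92.1 to 192) in acute and 60.0 CPM (upper bound 107) in long-term restriction mice, from 11 to 31 UMIs. Zfp608 was at 460 CPM (380 to 551), 510 CPM (436 to 594), 328 CPM (258 to 411) and 333 CPM (255 to 428) in the same order. Groups held 26 to 64 nuclei, doublets may remain among them, and no test over mice was made.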
